A study of Arabis alpina with 12 samples.

Results

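The genes described here are those with leaf mRNA coverage above 200 in Arabis alpina, a perennial relative of Arabidopsis. They were chosen by that coverage alone, which left 240 of the 24657 genes in the deposited mRNA table, or 0.973%. The measurements came from young leaves of the strain Pajares, grown on soil at 22.5 °C with a day of 16 h light and a night of 8 h. Marks came from chromatin immunoprecipitation for H3K4me3, H3K27me3 and H3K27me1 (2 libraries each, 1 input library) and from immunoprecipitation of methylated DNA for 5mC (2 libraries, 2 input libraries). The mRNA profile had 1 library, for 12 libraries in all, and there was no treatment, mutant or second tissue. The labels do not say whether libraries of a kind came from separate plants.

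Each mark is given as 1 list of enriched stretches, called domains here, and the values below therefore carry no replicate error. Intervals are exact (Clopper-Pearson) 95% intervals for shares and order-statistic 95% intervals for medians. They cover counting error over genes only, and genes are not replicates, so no p-value is given. Depth is unknown for every library. A gene was counted as carrying a mark when the domains of that mark held 200 bp or more of it, measured between its listed start and end (its span). The deposited score of a domain has no stated unit, so it was divided by domain length and expressed as a multiple of the median score per kb of its own list.

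In plants, H3K4me3 lies over the first part of transcribed genes, and H3K27me3 is laid down by Polycomb repressive complexes over genes that are silent in some or all cells of a tissue. H3K27me1 and cytosine methylation (5mC) are the marks of silent repeats and transposons, and 5mC also lies inside some transcribed genes. Genes of very high mRNA level in leaves usually serve photosynthesis, translation and defence, but the files pair no identifier with a name, so no function is given for any gene below. Whole leaves are a mixture of cell types: fewer cells of a type and less RNA per cell cannot be told apart, and neither can marks that share a gene from marks in different cells.

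Coverage among the 240 genes ran from 200.1 to 12378, with a median of 386 and quartiles of 258.5 and 800.05. The other 24417 listed genes had a median of 5.68. Coverage was above 400 in 116 of the 240 genes and above 1000 in 47. Together the 240 genes held 39.04% of the summed coverage of the table, and the 3 highest held 6.92%. The gene just inside the limit, Aa_G184100 on chromosome 8 (28335763 to 28337577), had a coverage of 200.1. The gene just outside, Aa_G134830 on chromosome 1 (1386576 to 1387693), had 198.6, and both carried H3K4me3 alone. The values on both sides of the limit lie close together.

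The 240 genes were shorter than the other listed genes. Their median span was 1418 bp (1277 to 1558), against 2098 bp (2077 to 2122) for the other listed genes. Genes with coverage of 100 to 200 had 1595 bp (1486 to 1677), which overlaps the interval of the 240. Those of 50 to 100 had 1774 bp (1695 to 1847), so spans below that of the whole table were not particular to the set. Spans of 1 to 2 kb made up 49.2% of the 240 genes and 32.9% of the others. Spans of 4 kb or more made up 2.50% of the 240 genes, which is 6 genes, and 14.5% of the others. The longest was Aa_G2390 on chromosome 5 (22031740 to 22039910), at 8171 bp and a coverage of 212. The shortest were Aa_G1117480, at 120 bp, and Aa_G766090, at 159 bp, with coverages of 2794 and 3373. Because the other genes are longer, several shares and extents are also given below within classes of span.

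**Figure D1:**
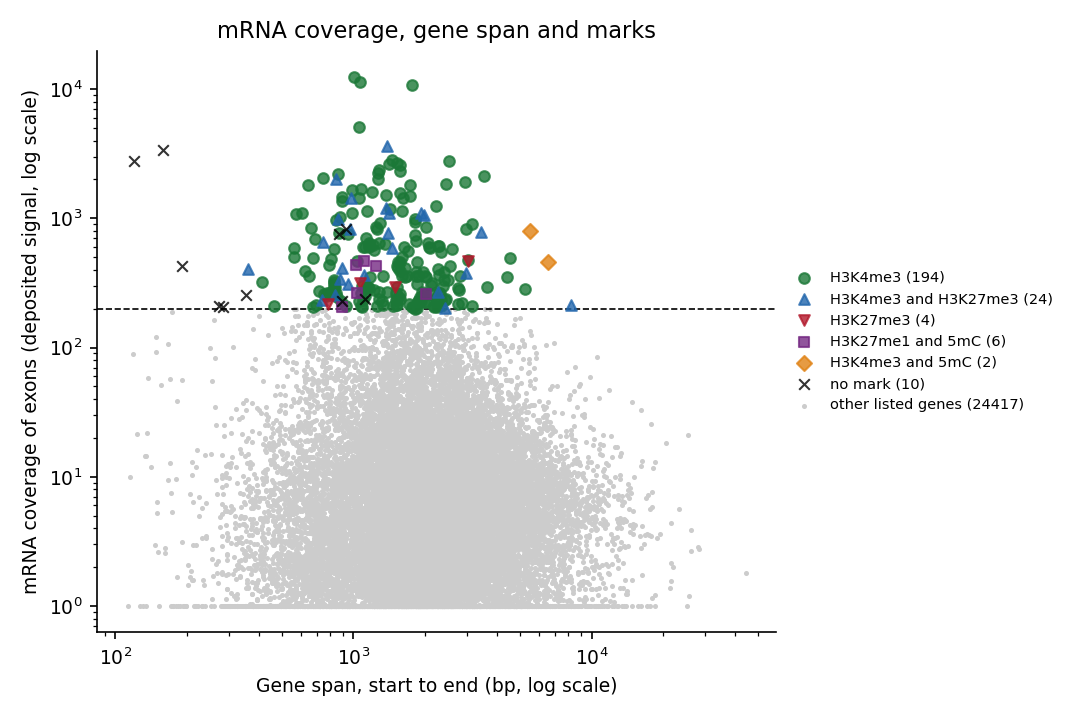
mRNA coverage (deposited signal, log scale) against gene span in bp (log scale) for the 240 genes above 200, marked by which domains cover at least 200 bp of the span, and for the other listed genes in grey. The dashed line is the limit of 200; 194 of the 240 genes carry H3K4me3 alone, and the 10 without any mark include the 2 shortest.

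Genes above 200 were found on all 8 chromosomes. There were between 7.40 (5.07 to 10.4) per 1000 listed genes on chromosome 8 and 14.2 (9.70 to 19.9) on chromosome 4, around 9.73 over the whole table, and these intervals overlap. Unplaced scaffolds held 19 of the 240 genes, 7.92% (4.83% to 12.1%), and 9.84% (9.47% to 10.2%) of the others.

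H3K4me3 was present on nearly all of these genes and mostly without another mark. It was on 220 of the 240 genes, 91.7% (87.4% to 94.8%), against a background of 76.2% over all listed genes. By combination, 194 genes carried H3K4me3 alone, which is 80.8% (75.3% to 85.6%) against a background of 67.1%. Among genes with coverage up to 10 it was 57.9% (57.1% to 58.6%). Genes with coverage of 10 to 50 had 86.9% (86.05% to 87.7%), above the interval of the 240 genes, and those of 100 to 200 had 85.9% (82.02% to 89.3%). H3K4me3 with H3K27me3 and no other mark was on 24 genes, 10% against a background of 5.00%. H3K4me3 with 5mC was on 2 genes, 0.833% (0.101% to 2.98%) against a background of 1.18%. Of the remaining 20 genes, 6 carried H3K27me1 with 5mC and no other mark, 2.50% against a background of 0.994%, all at 1 place in the genome. H3K27me3 alone was on 4 genes, 1.67% against a background of 6.36%. The last 10 genes carried none of the marks, 4.17% (2.02% to 7.53%) against a background of 14.9%. A like share was seen in the bands below, with 5.51% (4.97% to 6.09%) at 10 to 50 and 3.18% (1.66% to 5.49%) at 100 to 200, against 19.4% (18.8% to 20.03%) up to 10.

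The share of genes with H3K4me3 differed between the lowest band of coverage and all higher ones, and not beyond the intervals among the bands above 10. In ascending bands it was 68.3% (67.6% to 69.05%) for coverage up to 10, 92.7% (92.04% to 93.3%) for coverage of 10 to 50, 94.2% (92.3% to 95.8%) for 50 to 100, and 94.4% (91.6% to 96.5%) for 100 to 200. Within the 240 genes it was 91.1% (84.7% to 95.5%) for 200 to 400, 89.9% (80.2% to 95.8%) for 400 to 1000, and 95.7% (85.5% to 99.5%) above 1000. The intervals of all bands above 10 overlap. Within spans of 1 to 2 kb, 94.07% (88.2% to 97.6%) of the genes above 200 carried H3K4me3, against 98.9% (95.9% to 99.9%) of genes with coverage of 100 to 200 and 76.2% (75.3% to 77.1%) of all others of that span. Placement moved with this share. On the chromosomes 95.5% (91.8% to 97.8%) of the genes above 200 carried H3K4me3, against 79.5% (79.01% to 80.1%) of the others. On scaffolds it was 47.4% (24.4% to 71.1%), against 44.2% (42.2% to 46.2%).

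**Figure D2:**
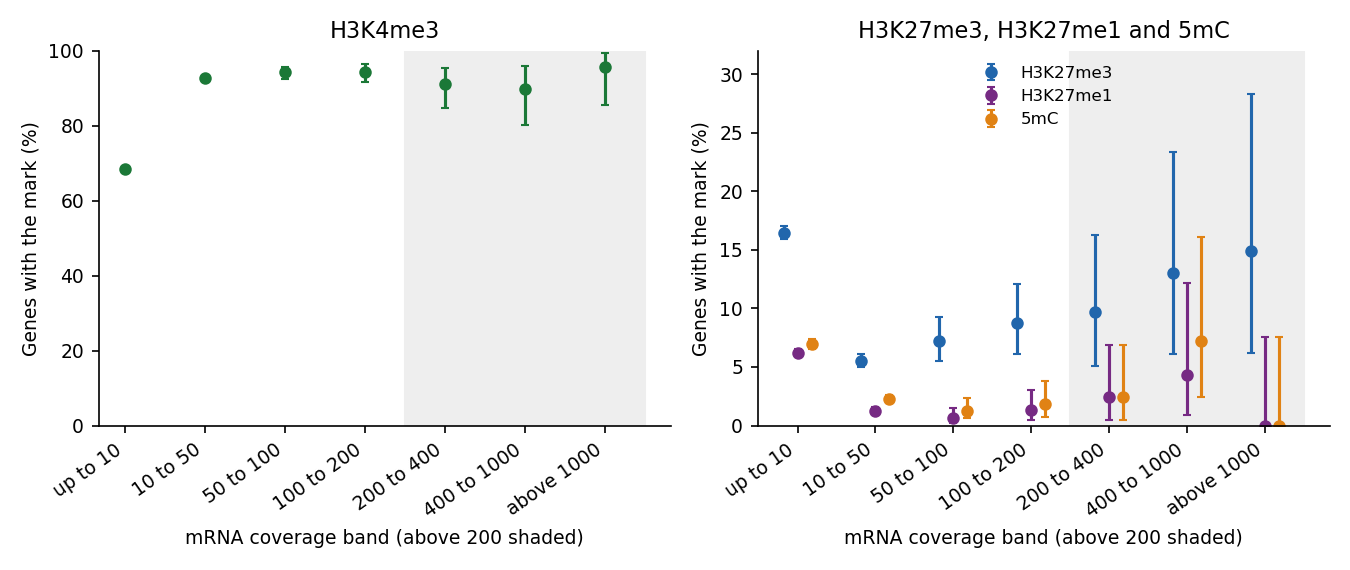
Share of listed genes with each mark (%) by band of mRNA coverage, low to high, with exact 95% intervals; the bands above 200 are shaded. H3K4me3 stays between 89.9% and 95.7% in every band above 10, against 68.3% up to 10; H3K27me3 is highest up to 10, at 16.5%, lowest in the band of 10 to 50, at 5.52%, and 14.9% above 1000, with wide intervals in the shaded bands.

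The difference in how much of the gene H3K4me3 covered was larger. Over all 240 genes the median share of the span inside H3K4me3 domains was 82.4% (77.4% to 86.6%), against 26.3% (25.9% to 26.7%) for the other listed genes. Among genes that carried the mark it was 85.2% (80.9% to 88.4%) for the 220 genes and 34.6% (34.2% to 35.03%) for the others. H3K4me3 covered at least 90% of the span in 84 of the 240 genes, 35% (28.98% to 41.4%), against a background of 3.92% and 17.5% (13.8% to 21.7%) of genes with coverage of 100 to 200. Of the 240, 29 lay wholly inside it. That is 12.1% (8.24% to 16.9%) of the 240, against a background of 1.46% over all listed genes. Genes with coverage of 100 to 200 had 6.63% (4.34% to 9.63%), which overlaps that interval. In spans of 500 bp to 1 kb it was 21.8% (11.8% to 35.01%) above 200 and 25.7% (16.01% to 37.6%) at 100 to 200. In 1 to 2 kb it was 12.7% (7.29% to 20.1%) and 2.29% (0.626% to 5.75%). For 90% or more of the span, these pairs were 49.1% and 51.4%, and 43.2% and 12%. In absolute length the mark covered a median of 1156 bp (1035 to 1254) of the 220 genes and 750 bp (750 to 750) of the others.

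The medians also differed in this direction within each class of span. For genes with H3K4me3 and a span of 500 bp to 1 kb, the median share covered was 91.96% (86.3% to 96.2%) in the 50 genes above 200 and 78.4% (77.1% to 79.8%) in the others. For 1 to 2 kb it was 88.9% (85.1% to 92.5%) in 111 genes above 200 and 48.9% (48.1% to 49.5%) in the others. For 2 to 4 kb it was 67.3% (58.3% to 72.96%) in 50 genes and 28.4% (28.1% to 28.8%) in the others. The 6 genes of 4 kb or more had a median of 40.3% (7.34% to 82.6%), against 13.6% (13.3% to 13.8%), so here the interval reaches below the others. Genes with coverage of 100 to 200 did not differ from those above 200 beyond the intervals at 500 bp to 1 kb, with 91.2% (85.9% to 96.7%). They had less of the span covered at 1 to 2 kb, with 62.1% (56.7% to 68.7%), while at 2 to 4 kb, with 50.3% (46.00% to 58.3%), the intervals overlap slightly. Under 500 bp only 3 genes above 200 carried the mark, with a median of 100%, and the others had 92.6% (88.4% to 97.9%).

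Coverage of the gene by H3K4me3 also ascended within the set. Among genes with the mark, the median share of the span was 62.1% (58.2% to 68.7%) at a coverage of 100 to 200, 79.2% (72.98% to 83.6%) at 200 to 400, 85.6% (76.5% to 90.9%) at 400 to 1000, and 94.5% (91.99% to 99.9%) above 1000. The intervals of 200 to 400 and 400 to 1000 overlap. Median span in the bands above 200 was 1543 bp (1315 to 1825), 1287 bp (1160 to 1627) and 1277 bp (1055 to 1455). The part of span in these medians was not tested. Spearman's rho between coverage and the share of the span was 0.38 over the 220 genes and 0.50 over the 111 with spans of 1 to 2 kb. In spans of 500 bp to 1 kb rho was 0.21 (50 genes) and in 2 to 4 kb 0.28 (50 genes). These are descriptions of 1 mRNA library and 1 domain list, in which all points share the same libraries.

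In genes of 1 to 2 kb, H3K4me3 reached both ends more often in genes above 200 than in the others. This measure is not separate from the share of the span covered, with medians of 88.9% above 200 and 48.9% in the others. An end was counted as covered when at least 150 bp of its outermost 300 bp lay in a domain. In genes of 1 to 2 kb with H3K4me3, both ends were covered in 59 of 111 genes above 200, 53.2% (43.4% to 62.7%), against 8.27% (7.59% to 8.98%) of the others and a background of 9.06%. Genes with coverage of 100 to 200 stood between, at 17.3% (12.02% to 23.8%) of 173. In genes of 2 to 4 kb the mark was at both ends in 2 of 50 genes above 200, 4% (0.488% to 13.7%), against 1.81% (1.53% to 2.13%) of the others and a background of 1.82%. It was at 1 end in 82.0% (68.6% to 91.4%) of those 50 genes and 88.4% (87.7% to 89.1%) of the others. None of the 6 genes of 4 kb or more had both ends covered, against 2.61% (2.07% to 3.25%) of the others and a background of 2.61%. The strand is not in the files, so which end is the start of transcription is not known.

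**Figure D3:**
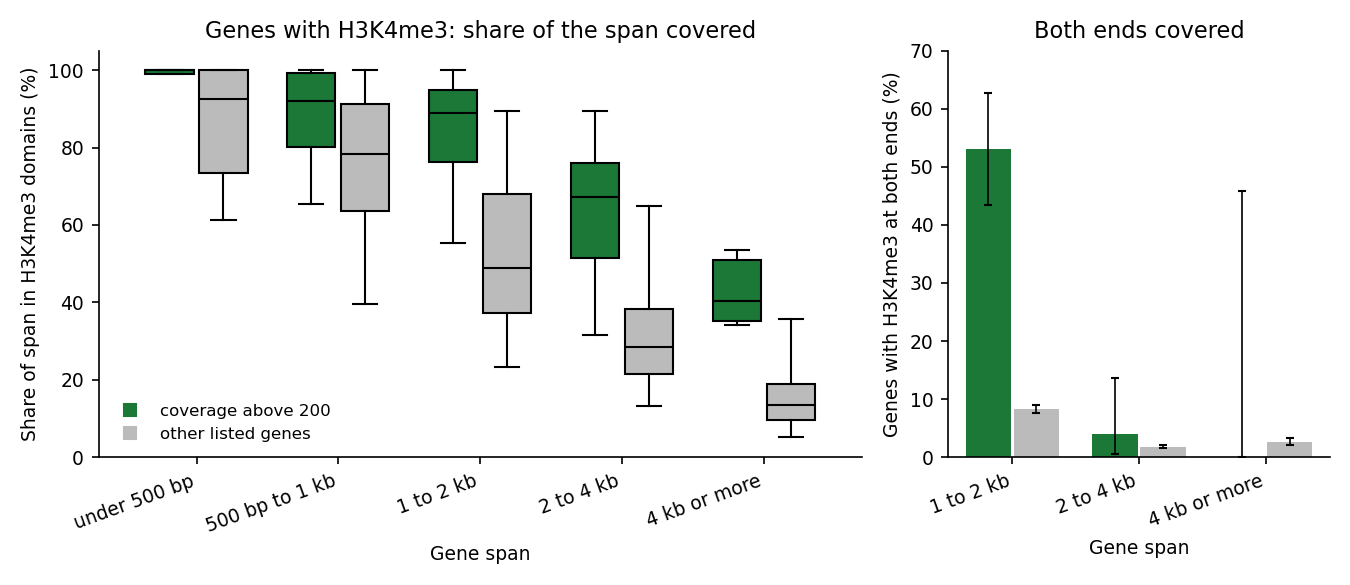
Left, share of the span inside H3K4me3 domains (%) by span class for genes with H3K4me3; boxes give quartiles and median, whiskers the 5th and 95th percentiles, green for coverage above 200 and grey for the other listed genes. Right, share of genes with H3K4me3 at both ends (%) with exact 95% intervals, where the 1 to 2 kb class stands at 53.2% against 8.27%.

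The H3K4me3 domains themselves were longer in genes above 200. The 244 that touched a gene above 200 had a median length of 1200 bp (1050 to 1350), against 750 bp (750 to 750) for the 20077 that touched other listed genes only. Taking the longest domain of each gene with the mark, the median was 1350 bp (1200 to 1500) in genes above 200 of 1 to 2 kb and 750 bp (750 to 750) in others of that span. In spans of 2 to 4 kb it was 1500 bp (1350 to 1800) against 750 bp (750 to 750). In most genes of either set, little of the domains lay outside the span. The bp of H3K4me3 domain beyond the span, both sides summed, had a median of 24 (13 to 41) in genes above 200 and 1 (0 to 3) in the others. The highest values were 4697 and 5747 bp. Domains lay wholly inside the span in 36.4% of genes above 200 with the mark and 49.6% of the others.

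The densest H3K4me3 domain on a gene had a median of 2.09 (1.96 to 2.20) times the list median per kb in the 220 genes with the mark, against 1.62 (1.61 to 1.63) times in the other genes touched by a domain. In spans of 1 to 2 kb the values were 2.21 (2.09 to 2.44) and 1.65 (1.63 to 1.67), and genes with coverage of 100 to 200 had 2.06 (1.93 to 2.20), which overlaps the first. By coverage the multiple was 1.49 (1.47 to 1.50) up to 10, 1.82 (1.80 to 1.84) at 10 to 50, 1.95 (1.88 to 2.01) at 50 to 100, 1.97 (1.89 to 2.07) at 100 to 200, 1.99 (1.82 to 2.17) at 200 to 400, 2.02 (1.79 to 2.45) at 400 to 1000, and 2.43 (2.11 to 2.59) above 1000. The intervals of the 3 bands above 200 overlap. The highest multiples, 4.39 and 4.38, belonged to Aa_G14880 (chromosome 3, 172493 to 172903, coverage 322) and Aa_G179060 (chromosome 3, 19022756 to 19024774, coverage 227), both below the median coverage of the set. The domain on Aa_G14880 was 5100 bp long, and only 403 bp of it lay in this gene, so most of its length lay outside. The list gives 1 score per domain, so where in the domain the signal lay is not known. The gene of highest coverage, Aa_G248920 (chromosome 1, 21220050 to 21221054), had 2.77 times the list median and 99.9% of its span covered.

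The 20 genes without H3K4me3 lacked it wholly. None of the 20 had a single base of its span in an H3K4me3 domain, and no gene of the 240 had some H3K4me3 but less than 200 bp. That is 8.33% of the 240, against a background of 22.6% of all listed genes with no base in such a domain and 6.81% (6.21% to 7.45%) of genes with coverage of 10 to 50. The 20 genes fell into 3 kinds by their other marks and their placement.

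The first kind is the 10 genes without any mark, with coverages from 205 to 3373. Of these, 9 were the only listed gene on a scaffold on which no domain of any list lay, and 6 of them began at base 1 of the scaffold. Their spans were short, between 120 and 1115 bp for the 10 genes, and 3 were under 200 bp and so could not meet the minimum. Of the 7 others, the highest coverages were those of Aa_G899430 (scaff_43197_1, 755 to 1681, coverage 827) and Aa_G997470 (scaff_66340_1, 49 to 919, coverage 760). Of the 10 genes above 200 that stood alone on their sequence, 1 carried H3K4me3, or 10% (0.253% to 44.5%), against 21.5% (19.3% to 23.9%) of the other listed genes that stood alone. The part of sequence length in these missing calls was not tested. The remaining gene without a mark, Aa_G766090 on chromosome 3 (27578794 to 27578952), lay 1698 bp from the nearest 5mC domain and 19548 bp from the nearest H3K4me3 domain.

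The second kind is the 4 genes with H3K27me3 as their only mark. Aa_G113000 on chromosome 8 (17488007 to 17491027, coverage 472) lay wholly in an H3K27me3 domain of 3900 bp, at 1.33 times the list median per kb. Aa_G438690 on scaff_55026_1 (6206 to 7273, coverage 314) was covered over 93.2%, at 1.56 times. A gene on chromosome 8 (969196 to 969980, coverage 218) was covered over 89.8%, and one on chromosome 7 (6395520 to 6397018, coverage 293) over 27.9%. In none of the 4 was an H3K4me3 domain closer than 2620 bp. H3K27me3 without H3K4me3 was thus on 1.67% (0.456% to 4.21%) of the 240 genes, against a background of 6.95% over all listed genes. The bands below had like shares, with 1.43% (1.15% to 1.75%) at 10 to 50 and 1.59% (0.586% to 3.43%) at 100 to 200, against 9.57% (9.13% to 10.03%) up to 10.

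The third kind is 6 genes inside a single domain on chromosome 2, described further below.

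H3K27me3 was on 28 of the 240 genes, 11.7% (7.89% to 16.4%), against a background of 13.1%, a share that does not differ beyond its interval. Of the 28 genes, 24 also carried H3K4me3, against 1521 of the 3235 genes with H3K27me3 over all listed genes. At a coverage of 50 to 100 it was 48 of 56, and at 100 to 200 it was 27 of 33. This make-up was thus not particular to the set. At 10 to 50 it was 267 of 360, and up to 10 it was 1155 of 2758. Both marks together were on 10% (6.51% to 14.5%) of the 240 genes, against a background of 6.17%. Genes with coverage of 10 to 50 had both in 4.10% (3.63% to 4.61%) and those of 100 to 200 in 7.16% (4.77% to 10.2%), which overlaps the interval of the 240. By band, H3K27me3 was most frequent in genes with coverage up to 10, at 16.5% (15.9% to 17.04%). Genes with coverage of 10 to 50 had it in 5.52% (4.98% to 6.11%), below the interval of the 240 genes. The share was 7.19% (5.48% to 9.23%) at 50 to 100, 8.75% (6.10% to 12.1%) at 100 to 200, 9.68% (5.10% to 16.3%) at 200 to 400, 13.04% (6.14% to 23.3%) at 400 to 1000 and 14.9% (6.20% to 28.3%) above 1000. From 10 upwards neighbouring bands do not differ beyond their intervals, and the top band is 7 of 47 genes. By span the values were as follows. In spans of 500 bp to 1 kb, 20% (10.4% to 32.97%) of 55 genes above 200 carried H3K27me3, against 9.27% (7.00% to 11.98%) of genes with coverage of 10 to 50. In 1 to 2 kb it was 8.47% (4.14% to 15.03%) of 118, against 4.35% (3.56% to 5.27%), and in 2 to 4 kb 9.62% (3.20% to 21.03%) of 52, against 4.58% (3.83% to 5.43%). The intervals of the last 3 pairs overlap.

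The marks shared bases in all but 1 of the 24 genes with both marks. H3K4me3 covered a median of 87.0% (79.2% to 89.4%) of their span and H3K27me3 70.8% (55.3% to 92.9%). In the 1497 other listed genes with both marks the medians were 29.9% (27.8% to 32.3%) and 48.5% (46.1% to 51.4%). The H3K27me3 within the span lay entirely inside H3K4me3 in 15 of the 24 genes, 62.5% (40.6% to 81.2%), against 20.7% (18.7% to 22.9%) of the 1497. The larger H3K4me3 share of these genes makes such an overlap more likely, and its part was not tested. The 24 genes also had a shorter median span, 1236.5 bp (878 to 1925) against 2357 bp (2228 to 2455) in the 1497. Their median coverage was 622 (341 to 1061) against 3.24 (2.88 to 3.62). The shares in genes with both marks were not compared within classes of span or bands of coverage. H3K27me3 domains did not differ beyond their intervals between the sets, with a longest domain of 900 bp (600 to 1200) in the 24 genes and 900 bp (900 to 1200) in the 1497. Its score was 1.18 (1.03 to 1.37) and 1.16 (1.14 to 1.18) times the list median per kb.

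The highest coverages among the 24 were those of Aa_G719360 on chromosome 8 (35330380 to 35331765, coverage 3649) and Aa_G15430 on chromosome 8 (16670250 to 16671094, coverage 2011). Aa_G719360 had H3K4me3 over 86.6% and H3K27me3 over 43.3% of its span, and Aa_G15430 had 88.9% and 71.0%. In each, the 600 bp of H3K27me3 lay wholly inside H3K4me3. Their H3K4me3 scores, at 1.36 and 1.41 times the list median per kb, were below the median of 1.81 (1.48 to 2.04) of the 24 genes. The long gene Aa_G2390 was the exception in layout, with 600 bp of H3K4me3 and 5061 bp of H3K27me3 and no base under both. Median coverage of the 28 genes with H3K27me3 was 441 (314 to 821), and that of the 212 genes above 200 without it was 362 (332 to 436). These intervals overlap, as do those of median span, 1236.5 bp (894 to 1499) and 1506.5 bp (1281 to 1566).

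**Figure D4:**
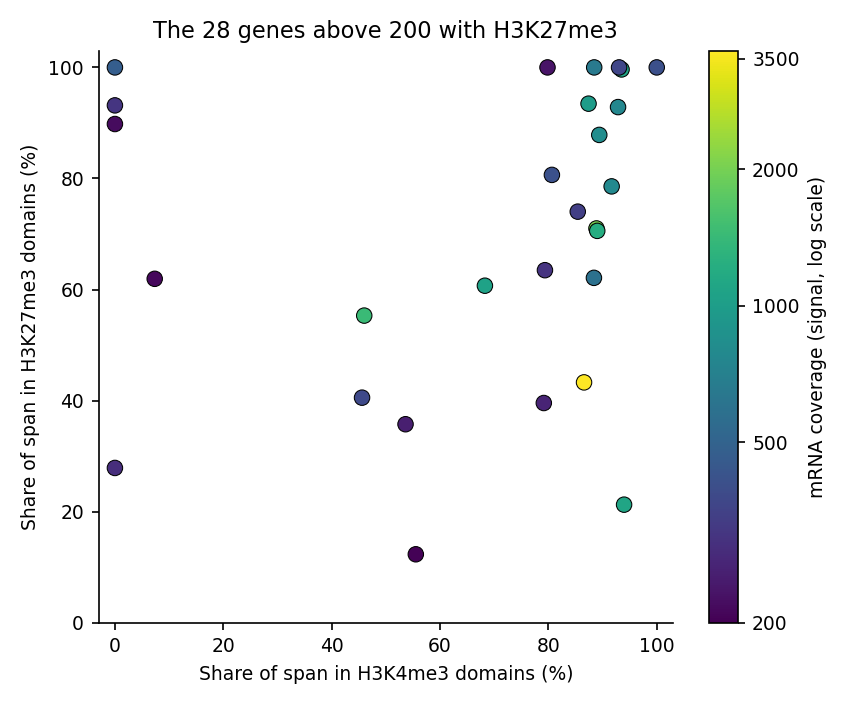
Share of the span in H3K27me3 domains (%) against share in H3K4me3 domains (%) for the 28 genes above 200 with H3K27me3, 1 point per gene, coloured by mRNA coverage on a log scale. The 4 points at 0% H3K4me3 have coverages up to 472, and most others lie to the right, with both marks over most of the span.

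H3K27me1 was on 6 of the 240 genes, 2.50% (0.923% to 5.36%), against a background of 4.60%. The same 6 also carried 5mC, and H3K27me1 with 5mC, whatever the other marks, had a background of 3.36%. 5mC was on 8 genes, 3.33% (1.45% to 6.46%), against 5.41%. The bands below were not higher. H3K27me1 was on 1.27% (1.02% to 1.58%) of genes at 10 to 50 and 1.33% (0.432% to 3.07%) at 100 to 200. 5mC was on 2.24% (1.90% to 2.63%) and 1.86% (0.750% to 3.79%) of them. These intervals overlap those of the 240 genes. Up to 10 the shares were 6.18% for H3K27me1 and 6.95% for 5mC. All 6 genes with H3K27me1 lay in the same domain, so they count as 1 place in the genome. The 2 further genes with 5mC were long and carried it as a small patch inside. Aa_G237140 on chromosome 7 (15310778 to 15316318, coverage 793) had 300 bp of 5mC, 2218 bp from its nearer end. Aa_G578520 on chromosome 5 (6649909 to 6656489, coverage 462) had 450 bp, 1842 bp from its nearer end. It also held 150 bp of H3K27me1, below the minimum of 200 bp. Both genes had H3K4me3 over about the same share, 37.9% and 34.2% of the span.

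The domain on chromosome 2 stood apart from the rest of the 5mC and H3K27me1 lists. The 5mC domain (2339401 to 2353500, 14100 bp) had 19.5 times the list median per kb, and the H3K27me1 domain (2339551 to 2353500, 13950 bp) had 30.4 times. Each ranked 1 by score per kb among the 61122 domains of 5mC and the 56694 of H3K27me1. Of the 10 listed genes on it, 6 were above 200, with coverages of 206, 259, 263, 431, 436 and 465 (the highest being Aa_G288930 and Aa_G288970), and 4 were below, between 9.10 and 129. All 6 lay wholly inside both marks, with no base of H3K4me3 or H3K27me3. The nearest H3K4me3 domain was 2250 bp from the 5mC domain. The nearest listed genes outside had coverages of 7.70, at 10719 bp, and 13.6, at 66927 bp. The lists give no input value for this place. Whether its sequence has further copies in the genome, with which reads would be shared, was not tested, so the coverages and scores given here are uncertain. Without these 6 genes, 0 of 234 genes carried H3K27me1, which allows a share of up to 1.28% at 3 counts of the total (exact upper limit 1.56%), and 2 of 234 carried 5mC, 0.855% (0.104% to 3.05%).

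**Figure D5:**
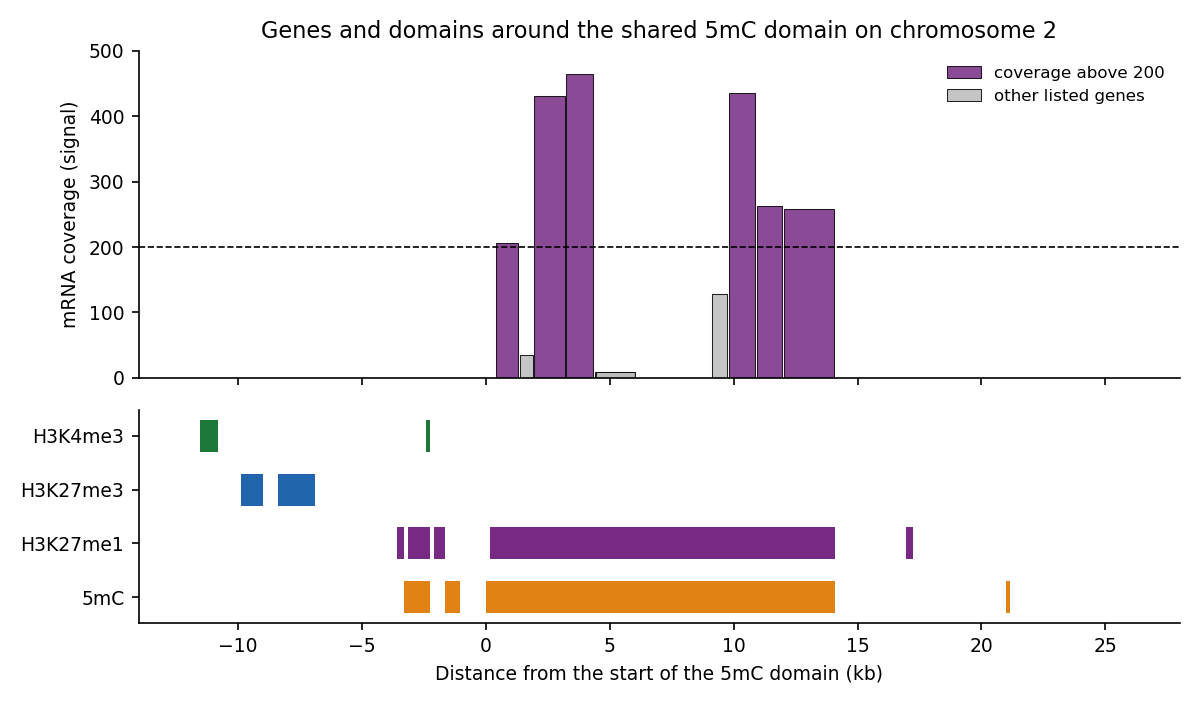
Top, mRNA coverage (deposited signal) of the 10 listed genes on the shared domain of chromosome 2, drawn to scale against distance from the start of the 5mC domain (kb), with the limit of 200 dashed and the 6 genes above it in purple; 2 genes near 4.4 to 6 kb overlap. Bottom, domains of the 4 lists over the same region, where H3K27me1 and 5mC run under all 10 genes and H3K4me3 and H3K27me3 do not.

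Genes above 200 were rarely neighbours, and those that were formed a few pairs and short runs. The next or previous listed gene on the same sequence was also above 200 for 12 of the 240 genes, 5.00% (2.61% to 8.57%), against a background of 1.83% over all listed genes. The 12 genes made 7 neighbouring pairs, and in all 7 the identifiers were 10 apart, as for genes numbered in order. The domain on chromosome 2 held 3 of the pairs, with gaps of 55 to 76 bp. Without its 6 genes the share was 2.99% (1.21% to 6.07%), against 1.78%. Another gene above 200 lay within 20 kb of 19 of the 240 genes, and the 6 genes on chromosome 2 are among the 19. The median distance between nearest genes above 200 on 1 sequence was 337 kb (259 to 380). Like values for the other listed genes were not at hand, so neither value is read as clustering.

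The pairs outside chromosome 2 each carried H3K4me3 in separate domains. Aa_G248920 and Aa_G248930, the genes of highest coverage in the table, lay 2034 bp apart on chromosome 1, with coverages of 12378 and 11265, a ratio of 1.10, and spans of 1005 and 1068 bp. On chromosome 4, genes of 1055 and 1052 bp lay 5104 bp apart (10512174 to 10513228 and 10518333 to 10519384), with coverages of 5063 and 1434. H3K4me3 covered 97.3% and 100% of them. On chromosome 5, 3 genes in a row (2956813 to 2964415) had coverages of 2021, 589 and 823, gaps of 1855 and 1781 bp, and spans of 1265, 1449 and 1253 bp. The middle one alone carried H3K27me3, over 62.1% of its span. Where neighbours are near-identical copies, reads may be split or shared between them, so their separate coverages are uncertain. Neither sequences nor names were at hand to tell which are copies.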

How the data were processed

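Chromatin and 5mC profiles (2 libraries each) and 1 mRNA library of young leaves were used as deposited. The deposited domain lists give 1 whole-number score per domain, without header; the submitters' processing notes name Bowtie and SICER with no version. Build, calling parameters and how replicates were combined were not given in the sources used here. The deposited mRNA table gives read coverage of exons per gene as a signal of at least 1, by its name and values; its scaling is not stated, and 2185 genes hold exactly 1. Domain starts were read as 0-based and ends as inclusive, since lengths are then whole windows of 150 bp (300 bp for H3K27me3). Coordinates are 1-based on the authors' assembly.

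Overlaps, shares and medians were computed with Python 3.11.15, numpy 2.4.6, pandas 2.3.3 and scipy 1.17.1, and the overlap code was tested on simulated data. A domain that spans several genes counts for each. Span classes were under 500 bp, 500 bp to 1 kb, 1 to 2 kb, 2 to 4 kb and 4 kb or more. Genes were named by rule: at most 2 identifiers, by coverage, in each set of marks, plus the longest, the shortest, the densest in H3K4me3, the longest run of neighbours and the genes at the limit. The pair on chromosome 4 was picked out after its values were seen. The limit of 200, the genes and the lists were chosen with earlier results of these data known. No tests were run, and the lists of genes by function were not used, for want of names. Alternatives are given in the closing section.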

Additional observations from a re-analysis of the deposited data

How the results depend on the processing

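Of 70 alternative values for 9 results, 58 stayed within the 95% interval of the value reported and 12 moved outside it. Against the other listed genes, 65 kept their side and 5 changed it. Those 5 were H3K27me3 at 50% of the span (8.75% against 7.45%), in the upper 50% of domains by score per kb (9.58% against 9.17%) and above a coverage of 400 (13.8% against 13.1%), and H3K27me1 and 5mC at 50% of the span (2.50% against 1.87%, and 2.50% against 2.11%). The share of genes with H3K4me3 was 82.5% at 50% of the span, against 22.2% of the others, and 95.5% on the 8 chromosomes. With 500 bp added on each side, 5mC was on 8.33% of the genes and the median share in H3K4me3 was 51.2%. With the limit at 100 or 400 that median was 70.9% or 88.9%, and both ends were covered in 31.3% or 75.4% of genes of 1 to 2 kb. At 400 the H3K4me3 score was 2.22 times the list median. With end windows of 600 bp and at least 300 bp covered, both ends were covered in 74.8%, against 20.6% of the others. Without the 6 genes that share 1 domain, H3K27me1 was on 0% and 5mC on 0.855%. The alternatives for both ends and those without the 6 genes were chosen after seeing the data. No paired analysis was possible because domains come as 1 list per mark, not per library, and the mRNA has 1 library, so leaving out a replicate was not run either. Depth is unknown, so missing domains on short scaffolds cannot be told apart from missing signal.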

Other observations

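The listed genes next to a gene above 200 did not differ from listed genes elsewhere beyond the intervals. These 439 neighbours had a median coverage of 5.98 (order-statistic 95% interval 5.12 to 6.77), against 5.68 (5.58 to 5.79) for the 23978 genes that were neither above 200 nor next to such a gene. H3K4me3 was on 78.6% (exact 95% interval 74.5% to 82.3%) of the neighbours and 76.02% (75.5% to 76.6%) of the rest, and H3K27me3 on 14.6% (11.4% to 18.2%) and 13.1% (12.7% to 13.5%). Coverage was at the floor of 1 in 7.06% (4.85% to 9.87%) of the neighbours and 8.98% (8.62% to 9.35%) of the rest. The distance to the nearest listed gene had a median of 636 bp (467 to 923) for genes above 200 and 704 bp (675 to 727) for the others.

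H3K4me3 domains that touched a gene above 200 more often ran over a second listed gene, in 28 of 244 domains or 11.5% (7.76% to 16.2%), against 2.27% (2.07% to 2.49%) of the domains touching other listed genes only. Those domains are longer, which was not adjusted for. None of the 244 touched 2 genes above 200, and the most genes on 1 of them was 3. None of the 33 H3K27me3 domains on genes above 200 reached a second listed gene, which allows a share of up to 9.09% at 3 counts of the total (exact upper limit 10.6%), against 1.13% (0.830% to 1.50%) of those touching other listed genes only.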
